A study of Mus musculus with 13 samples.

Results

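The genes described here are 10 genes of the hepatic lipid droplet: the coat proteins Plin2, Plin3, Plin4 and Plin5, the fusion proteins Cidea, Cideb and Cidec, and the lipolysis genes Pnpla2, Pnpla3 and G0s2. They were chosen by name as coat, fusion and lipase genes of the droplet, from the 53465 genes of the count table, and all 10 were among the 13545 genes with enough counts to be tested. The livers came from male BALB/c mice, 6 WT and 7 Nod2-/-, with 1 library per mouse. All 13 had been treated once as pups with the carcinogen DMBA (dimethylbenz[a]anthracene) and were then kept on high fat diet (HFD) until the livers were taken, which the labels place at 30 weeks for both age and diet. Nod2 is a pattern recognition receptor for bacterial cell wall fragments, and the study asked how its loss changes the livers of obese, carcinogen-treated mice. The Nod2-/- and WT mice were bred separately and were not littermates, and all libraries carried both DMBA and HFD, so neither treatment could be separated here. The labels give the disease state of every sample as cancer and do not say whether a given piece of liver held tumor, so fewer cells of one type and less RNA per cell cannot be told apart in these bulk samples. In the study, male Nod2-/- mice on this regimen gained more weight than WT mice, and a larger share of them had liver tumors. Genotype, tumor burden and body weight therefore cannot be told apart in the comparisons below.

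Triglyceride in hepatocytes is kept in droplets whose surface is covered by perilipins (Plin genes), which limit the access of lipases. CIDE proteins pass lipid from one droplet to another at their contact sites, so that large droplets grow, and Cideb also loads lipid onto very low density lipoprotein. Pnpla2 encodes adipose triglyceride lipase, the enzyme that starts droplet lipolysis, G0s2 encodes its inhibitor, and Pnpla3 encodes a related droplet protein of hepatocytes whose transcript follows insulin and lipogenic transcription factors.

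Total counts ranged from 14886273 to 20579984 in WT mice and from 13824780 to 19391431 in Nod2-/- mice. Values below are normalized counts, that is counts scaled by TMM to the mean effective library of 16581214 reads. The Nod2 transcript was near zero in both groups, with 0 to 4 counts in WT and 1 to 6 counts in Nod2-/- libraries, and could not check the genotypes at this depth. WT replicate 3 stood apart from its group, with a median Spearman correlation to the other WT livers of 0.968 against 0.980 to 0.985 for the other 5. Among Nod2-/- livers the same measure within their own group was 0.968 to 0.976, so a value of 0.968 was not unusual for a liver of this series. Of 7 neutrophil markers 3 had enough counts to be tested in edgeR and limma, and 0 passed a 5% false discovery rate in either. The shares of all genes tested were 1.16% in edgeR and 6.22% in limma. DESeq2, run without that count filter, called 3 of the 7, and 8.41% of all its genes. The sum of all 7 markers was 59.2 to 133 among WT livers and 88.8 to 15445 among Nod2-/- livers, where replicate 7 was highest and no other reached over 643. Nod2-/- replicate 7 also had the highest summed macrophage markers (6027 against at most 3204). Hepatocyte markers were abundant in all 13 livers, all 4 skeletal muscle markers were at 3 counts or fewer everywhere, and of 7 adipocyte markers only Fabp4, which macrophages and endothelium also express, had enough counts to be tested. The summed adipocyte markers, nearly all Fabp4, were at 103 to 324 normalized counts in WT and 210 to 834 in Nod2-/- mice. Plin1, the adipocyte perilipin, had 0 counts in all WT mice and at most 3 in any Nod2-/- mouse.

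The sequences before the transcription start are shown for Pnpla3 and Cidec, which varied together from mouse to mouse, and for Plin2 and Cideb, which had the highest levels per length and the lowest coefficients of variation. Each window holds the 250 bases before the RefSeq start site in GRCm38.p6, written 5′ to 3′ on the strand of the gene, with matches to the motifs named after them in capitals.
Pnpla3 (chr15:84167566-84167815, plus strand): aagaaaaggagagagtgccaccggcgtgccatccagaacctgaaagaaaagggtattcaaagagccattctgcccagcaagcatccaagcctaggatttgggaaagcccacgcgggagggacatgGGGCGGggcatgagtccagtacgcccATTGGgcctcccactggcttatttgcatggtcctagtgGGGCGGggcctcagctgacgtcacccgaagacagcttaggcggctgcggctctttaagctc
Cidec (chr6:113435761-113436010, minus strand): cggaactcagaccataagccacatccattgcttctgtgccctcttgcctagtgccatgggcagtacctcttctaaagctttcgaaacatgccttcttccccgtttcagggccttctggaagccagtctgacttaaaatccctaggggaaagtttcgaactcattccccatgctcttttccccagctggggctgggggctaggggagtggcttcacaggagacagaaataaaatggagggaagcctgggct
Plin2 (chr4:86670060-86670309, minus strand): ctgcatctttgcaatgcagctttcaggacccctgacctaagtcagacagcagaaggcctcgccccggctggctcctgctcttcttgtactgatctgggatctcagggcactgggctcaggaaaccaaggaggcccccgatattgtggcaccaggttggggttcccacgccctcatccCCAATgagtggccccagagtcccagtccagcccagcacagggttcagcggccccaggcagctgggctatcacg
Cideb (chr14:55758425-55758674, minus strand): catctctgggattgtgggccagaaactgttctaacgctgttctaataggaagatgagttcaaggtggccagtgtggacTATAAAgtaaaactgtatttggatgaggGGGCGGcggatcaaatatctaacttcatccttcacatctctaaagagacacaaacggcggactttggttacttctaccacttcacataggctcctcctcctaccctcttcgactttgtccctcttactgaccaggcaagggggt

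RefSeq windows were found for 9 of the 10 genes, at 11 start sites. Both strands were searched for 4 motifs. The letters were TATAAA for the promoter element that binds the TATA-binding protein, CCAAT for the element of that name, GGGCGG for the GC box of Sp factors and CACGTG for the E-box of basic helix-loop-helix factors. The Pnpla3 window held 1 CCAAT box on the reverse strand, 99 to 95 bases before the start, and 2 GC boxes at 125 to 120 and at 61 to 56 bases. Cidec held none of the 4 motifs, Plin2 held 1 CCAAT box at 73 to 69 bases, and Cideb held a TATA box at 172 to 167 bases and a GC box at 144 to 139 bases. No match overlapped another in these 4 windows. Among 32851 windows of the same length, 12.4% held the TATA box, 33.8% the CCAAT box, 32.7% the GC box and 6.02% the E-box. The matches describe letters in a short window and not bound sites.

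Comparing Nod2-/- with WT livers, none of the 10 droplet genes passed a 5% false discovery rate (FDR) in edgeR, where 1.16% of all genes tested were called. At an unadjusted P under 0.05 the count was 1 of 10, namely Pnpla3, against 23.1% of all genes tested. Groups that did not overlap were found for 0 of the 10 genes and for 1.44% of all genes tested. DESeq2 called 0 of 10 (8.41% of its 14370 genes), and limma with sample quality weights called 1 of 10, Pnpla3 (6.22% of all genes tested). The median log2 fold change was -0.06 over the 10 genes and 0.02 over all genes tested, with 4 positive and 6 negative values.

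**Figure D1:**
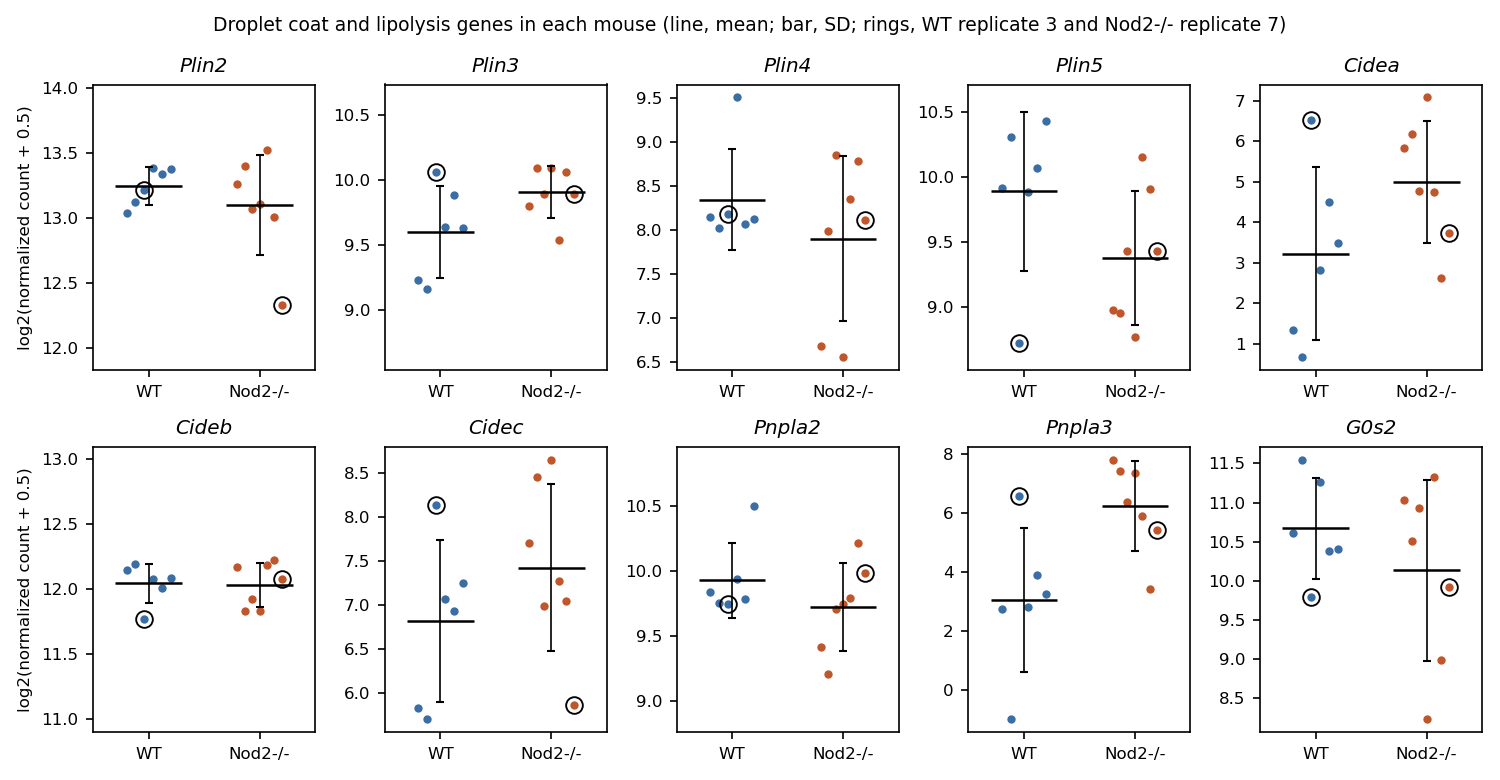
Each point is 1 mouse, with log2(normalized count + 0.5) on the vertical axis, WT mice in blue and Nod2-/- mice in orange. Lines are means, bars are SD, and rings mark WT replicate 3 and Nod2-/- replicate 7. The genotypes overlap in all 10 panels, and in Pnpla3 the ringed WT mouse, at 95.8 normalized counts, lies among the Nod2-/- mice while the other WT mice are at or below 14.4.

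Plin2 (ENSMUSG00000028494.12, chr4:86648386-86670060, minus strand, GRCm38), the main coat protein of the hepatocyte droplet, ran from 8422 to 10705 normalized counts in WT mice, with a median of 9932. In Nod2-/- mice it ran from 5165 to 11785, with a median of 8838. The highest and the lowest livers were both Nod2-/-, replicates 5 and 7, and all 6 WT livers lay between them. The edgeR log2 fold change was -0.11 ± 0.16 (SE, adjusted P = 0.700). Nod2-/- replicate 7, with the lowest Plin2, was also the liver with the highest neutrophil and macrophage marker sums, whose part in its Plin2 level was not tested, and without that mouse the fold change was -0.01.

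Plin3 (ENSMUSG00000024197.9, chr17:56277476-56292873, minus strand), a perilipin that moves between cytosol and new droplets, ran from 573 to 1071 normalized counts in WT mice (median 796) and from 743 to 1094 in Nod2-/- mice (median 951). Both WT replicates 1 and 2 lay below every Nod2-/- liver, and 6 of 7 Nod2-/- livers lay above the WT median. Its log2 fold change was 0.28 ± 0.14 (SE) with an adjusted P of 0.254 in edgeR, and the exact permutation test over all 1716 splits of the mice gave P = 0.0798 (two-sided). WT replicate 3 held the highest WT value, 1071.

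Plin5 (ENSMUSG00000011305.11, chr17:56111601-56117596, minus strand) ties droplets to mitochondria in tissues that burn fat. It ran from 422 to 1381 normalized counts in WT mice (median 1019) and from 436 to 1136 in Nod2-/- mice (median 688). Only 1 of 7 Nod2-/- livers was above the WT median, yet the lowest liver of all was WT replicate 3. For Plin5 the log2 fold change was -0.52 ± 0.26 (SE) with an adjusted P of 0.248 in edgeR, and -0.70 with an adjusted P of 0.0618 without that WT mouse.

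Plin4 (ENSMUSG00000002831.13, chr17:56100591-56109803, minus strand), a perilipin best known from fat and muscle, is separated from Plin5 by 1.8 kb. It ran from 261 to 727 normalized counts in WT mice (median 282) and from 93.7 to 461 in Nod2-/- mice (median 276). Of the WT livers 5 lay within 261 to 290.1, with replicate 4 alone at 727, while the Nod2-/- livers were spread on both sides of them. The log2 fold change was -0.33 ± 0.37 (SE, adjusted P = 0.615 in edgeR) and 0.01 without WT replicate 4. Plin4 and Plin5 are neighbours, and their levels across the 13 mice, with each genotype centred on its mean, were not correlated at a 5% FDR (Pearson r = 0.42, permutation P = 0.157, and Spearman rho = 0.21, permutation P = 0.510, with adjusted P of 0.346 and 0.656 over 45 pairs, and r = 0.36 without the 2 mice farthest from the median). Their r was -0.07 within WT and 0.74 within Nod2-/- mice, a difference that was not tested.

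Plin2 made up most of the perilipin message when counts were divided by exon length. Its share of the 4 tested perilipins was 76.0% to 83.5% in WT mice, with a median of 78.3%. In Nod2-/- mice the share was 70.0% to 85.0%, with a median of 80.8% and the lowest value in replicate 7. The WT range lay inside the Nod2-/- range. The log2 ratio of Plin5 to Plin2 in the same liver, a comparison chosen after the values were seen, was -3.36 ± 0.60 (SD, n = 6) in WT and -3.73 ± 0.63 (SD, n = 7) in Nod2-/- mice. The difference of -0.37 gave P = 0.306 in an exact permutation test, or 0.408 adjusted over the 4 ratios compared, and it ranged from -0.60 without WT replicate 3 to -0.25 without Nod2-/- replicate 2.

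Cideb (ENSMUSG00000022219.10, chr14:55754050-55758458, minus strand) is the CIDE protein of normal hepatocytes. It ran from 3483 to 4673 normalized counts in WT mice (median 4325) and from 3638 to 4782 in Nod2-/- mice (median 4312). It was the steadiest of the 10 genes, with a coefficient of variation of 10.4% over the 13 livers, and its lowest value was in WT replicate 3. For Cideb the log2 fold change was -0.01 ± 0.10 (SE, adjusted P = 0.968 in edgeR). Its exons share 1136 bases, or 76.3% of their length, with Nop9 on the other strand. The strand setting of the counting is not given in the sources used here, so reads of Cideb and Nop9 may not have been separated.

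Cidec (ENSMUSG00000030278.11, chr6:113424634-113435760, minus strand), which enlarges droplets in fat cells and in fatty liver, ran from 51.5 to 280.2 normalized counts in WT mice (median 128) and from 57.8 to 402 in Nod2-/- mice (median 154). The 2 highest livers were Nod2-/- replicates 4 and 2, at 402 and 351, followed by WT replicate 3, and the lowest were WT replicates 2 and 1 and Nod2-/- replicate 7. For Cidec the log2 fold change was 0.62 ± 0.45 (SE, adjusted P = 0.417 in edgeR). It ranged from 0.37 without Nod2-/- replicate 4 to 0.97 without WT replicate 3.

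Cidea (ENSMUSG00000024526.8) is a droplet fusion protein of brown fat that also appears in fatty liver. It was low, from 1.10 to 91.3 normalized counts in WT mice (median 8.61) and from 5.69 to 135 in Nod2-/- mice (median 26.7). Of the Nod2-/- livers 6 of 7 lay above the WT median, but WT replicate 3, at 91.3, exceeded all of them except replicate 4, at 135, and the other WT livers were at or below 22.1. The log2 fold change was 1.08 ± 0.83 (SE) with an adjusted P of 0.446 in edgeR, 2.46 without WT replicate 3 and 0.56 without Nod2-/- replicate 4. In none of the 13 fits that each left out 1 mouse did it pass the threshold, the lowest adjusted P being 0.0624.

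Nod2-/- replicate 4, which had the highest Cidea and Cidec, also had the most counts of the adipocyte marker Cfd (33.9 normalized counts, against at most 7.67 in any other liver), of Plin1 (2.99 against at most 1.14) and of Adipoq (4.99 against at most 3.08). The other 4 of the 7 adipocyte markers were not highest in that liver. Fabp4, the only one tested, was at 481 there and highest in Nod2-/- replicate 6 (833), Retn was at 2.99 and highest in Nod2-/- replicate 7 (3.92), Slc36a2 was at 0.997 and highest in WT replicate 2 (1.10), and Lep was at 0 there. WT replicate 3, with the next highest Cidea, had 0 normalized counts of Plin1 and of Adipoq. The part of adipose tissue in the Cidea and Cidec levels was not tested.

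Cideb made up 91.0% to 99.1% of the CIDE message per exon length in WT mice, with a median of 97.2%. In Nod2-/- mice it made up 87.9% to 98.6%, with a median of 96.6% and the lowest share in replicate 4. The ratio of Cidec to Cideb, also chosen after the values were seen, differed between the genotypes by 0.62 on the log2 scale (exact permutation P = 0.276, adjusted 0.408 over 4 ratios), and by 0.37 without WT replicate 2 to 0.94 without WT replicate 3.

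Pnpla2 (ENSMUSG00000025509.15, chr7:141455198-141460743, plus strand), the lipase, ran from 859 to 1454 normalized counts in WT mice (median 900) and from 593 to 1194 in Nod2-/- mice (median 858). The high WT value came from replicate 6 alone, the other 5 being at or below 983, and 4 of 7 Nod2-/- livers lay below every WT liver. The log2 fold change was -0.20 ± 0.16 (SE, adjusted P = 0.481 in edgeR), and -0.06 without WT replicate 6.

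G0s2 (ENSMUSG00000009633.3, chr1:193272161-193273217, minus strand), the inhibitor of Pnpla2, ran from 889 to 2993 normalized counts in WT mice (median 1463) and from 300.2 to 2563 in Nod2-/- mice (median 1460). The medians lay side by side and the groups overlapped, with the 2 lowest livers being Nod2-/- replicates 4 and 6. For G0s2 the log2 fold change was -0.33 ± 0.43 (SE, adjusted P = 0.668 in edgeR). The log2 ratio of inhibitor to lipase (G0s2 to Pnpla2, chosen after the values were seen) was 0.74 ± 0.73 (SD, n = 6) in WT and 0.41 ± 1.34 (SD, n = 7) in Nod2-/- mice. The exact permutation test of this ratio gave P = 0.592, the same value after adjustment over 4 ratios. With 1 mouse left out the difference of -0.33 ranged from -0.53 without Nod2-/- replicate 1 to -0.01 without Nod2-/- replicate 4, and it was -0.06 without Nod2-/- replicate 6 and -0.12 without WT replicate 2.

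Pnpla3 (ENSMUSG00000041653.4, chr15:84167837-84187236, plus strand) had the largest fold change of the 10 genes. In WT mice it was at 6.15, 0, 95.8, 6.58, 14.4 and 9.01 normalized counts in replicates 1 to 6. In Nod2-/- mice it was at 224, 172, 83.2, 165, 58.9, 10.2 and 42.1 in replicates 1 to 7. All 7 Nod2-/- livers were above the WT median of 7.79, but only 3 were above every WT liver, because WT replicate 3 lay between the third and the fourth highest Nod2-/- values. The 0 of WT replicate 2 allows up to 3 counts in that library.

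The group means were 22.0 ± 36.5 (SD, n = 6) in WT and 108 ± 79.4 (SD, n = 7) in Nod2-/- mice, and the edgeR log2 fold change was 2.26 ± 0.82 (SE). This difference had an unadjusted P of 0.0151 and an adjusted P of 0.129 in edgeR, and did not pass the 5% FDR. The exact permutation test over the 1716 splits gave P = 0.0152 (two-sided), or 0.145 after adjustment over all genes tested. In limma with quality weights, which lowers the weight of libraries that stand apart, the log2 fold change was 3.66 ± 0.99 (SE) with an adjusted P of 0.0428, and in DESeq2 it was 2.29 ± 0.93 (SE) with an adjusted P of 0.0980. The study listed Pnpla3 among lipid genes chosen from these same livers, so its direction is not independent evidence. Its lists hold genes past a fold threshold and a 5% FDR in DESeq2, and the DESeq2 fit here did not reproduce that call for Pnpla3.

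The Pnpla3 call turned on 1 liver. Without WT replicate 3 the WT mean was 7.22 ± 5.19 (SD, n = 5), 6 of the 7 Nod2-/- livers lay above every remaining WT liver, and edgeR gave a log2 fold change of 3.86 with an adjusted P of 0.0174. That fit called 8.49% of its 13611 genes, against 1.16% with all mice, so the count of calls rose far beyond the droplet genes. In the other 12 fits with 1 mouse left out the log2 fold change was 1.98 to 2.46. Over all 19 alternative fits the adjusted P ranged from 0.0174 to 0.233. The same WT liver had the highest WT level of Scd1, the stearoyl-CoA desaturase of fat synthesis (9912 normalized counts, against at most 3508 in the other WT mice). It also had the highest WT level of Fasn, the fatty acid synthase (3999 against at most 2650). Of the other lipogenic enzymes listed below, Acaca, Acly and, barely, Elovl6 were also highest among WT mice in that liver. Pklr, Me1 and Thrsp were not, and Me1 and Thrsp lay below their WT medians there. What set WT replicate 3 apart was not tested.

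**Figure D2:**
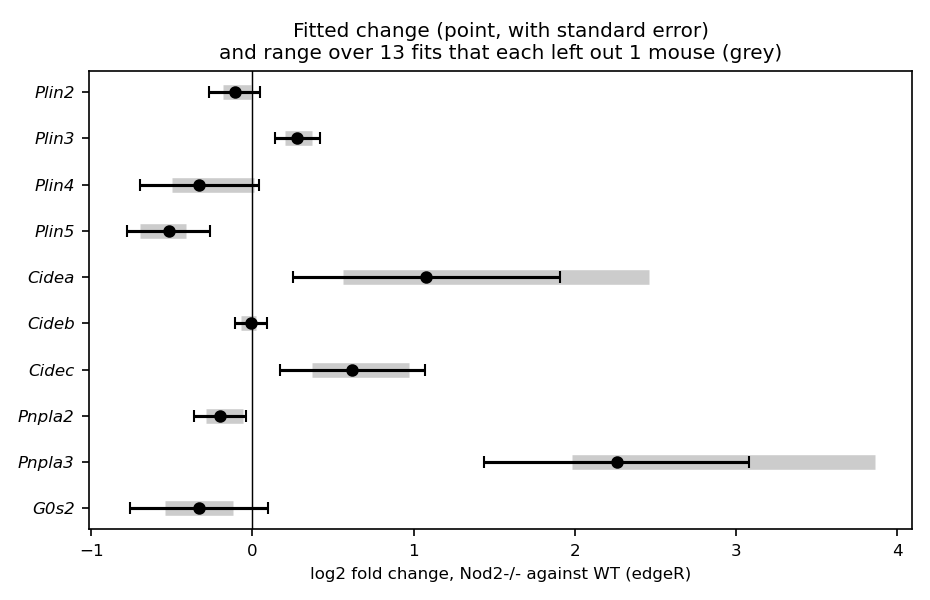
The horizontal axis is the edgeR log2 fold change of Nod2-/- against WT livers for each of the 10 genes. Points are the fit with all 13 mice, black bars are its standard error, and grey bars span the 13 fits that each left out 1 mouse. Pnpla3 is farthest from 0 at 2.26 and Cideb is nearest at -0.01. The grey bars of Pnpla3 and Cidea reach farthest to the right, to 3.86 and 2.46.

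Pnpla5, a related patatin-like gene that lies 44.7 kb from Pnpla3 on chromosome 15 and is not among the 10, was also low and variable. It ran from 1.10 to 52.4 normalized counts in WT mice (median 4.86) and from 0 to 348 in Nod2-/- mice (median 53.4). The 2 livers with the most Pnpla5, Nod2-/- replicates 1 and 2, were also those with the most Pnpla3, and the groups overlapped. Its log2 fold change was 2.76 ± 1.07 (SE, adjusted P = 0.149 in edgeR), and the exact permutation test gave P = 0.178. Pnpla5 was also on the lipid gene list that the study took from these livers, while the DESeq2 fit here gave it an adjusted P of 0.128. The log2 ratio of Pnpla3 to Pnpla2, chosen after the values were seen, was -6.88 ± 2.45 (SD, n = 6) in WT and -3.48 ± 1.83 (SD, n = 7) in Nod2-/- mice. That difference of 3.40 gave an exact permutation P of 0.0157, and 0.0629 after adjustment over 4 ratios. With 1 mouse left out it ranged from 2.63 to 4.15, and it passed after adjustment only without WT replicate 3 (4.15, adjusted permutation P = 0.0202) and without Nod2-/- replicate 6 (3.96, adjusted permutation P = 0.0346).

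The 10 genes covered a wide span of levels, compared here as mean normalized counts per kb of exon. In WT mice the order was Cideb (2851 per kb), Plin2 (2780 per kb), G0s2 (2030 per kb), Plin5 (483 per kb), Pnpla2 (329 per kb), Plin3 (211 per kb), Cidec (71.4 per kb), Plin4 (60.8 per kb), Cidea (19.99 per kb) and Pnpla3 (14.2 per kb). Neighbours in this WT order had overlapping ranges except G0s2 and Plin5, Pnpla2 and Plin3, and Plin3 and Cidec. In Nod2-/- mice the first 7 kept their places, Pnpla3 was eighth at 69.7 per kb, before Plin4 at 48.3 per kb and Cidea at 42.9 per kb, and all neighbours in the order overlapped.

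**Figure D3:**
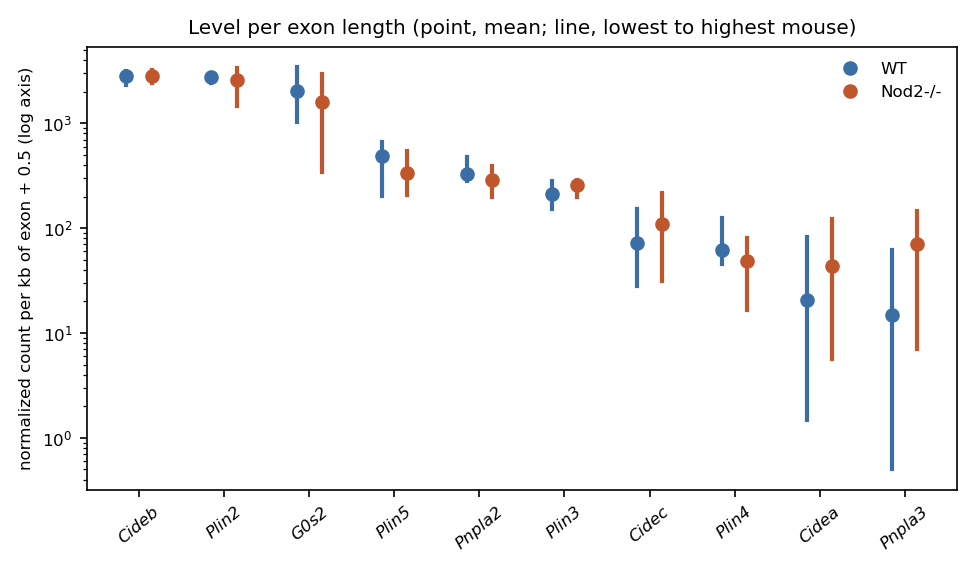
The vertical axis, on a log scale, is the normalized count per kb of exon plus 0.5 for the 10 genes in the order of their WT means. Points are means of 6 WT (blue) and 7 Nod2-/- (orange) mice, and lines run from the lowest to the highest mouse. Cideb, Plin2 and G0s2 lie above the other 7 genes in WT mice, and the lines of Cidea and Pnpla3 are the longest on this scale.

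Variation between livers also differed widely among the 10 genes. Over the 13 livers the coefficient of variation of normalized counts was 10.4% for Cideb, 17.8% for Plin2, 20.03% for Plin3 and 23.3% for Pnpla2. It was 38.7% for Plin5, 51.6% for G0s2, 51.8% for Plin4 and 64.7% for Cidec. Cidea and Pnpla3, at 114% and 110.5%, were the most variable, and they were also the genes with the fewest counts.

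Some pairs of the droplet genes were correlated from liver to liver. After each genotype was centred on its own mean, 5 of the 45 pairs of the 10 genes were correlated at a 5% FDR by both Pearson's r and Spearman's rho over the 13 mice (10 pairs by Pearson's r and 5 by Spearman's rho, permutation tests with 100000 resamples within genotype). The share of correlated pairs among all genes tested was not measured, so this count is no result about droplet genes in particular. Cidea and Pnpla3 were the closest of the 45 pairs, with r = 0.92 (permutation P = 5.0e-05, adjusted 0.00225) and rho = 0.92 (permutation P = 8.0e-05, adjusted 0.00360). The correlation was r = 0.91 within WT and 0.93 within Nod2-/- mice, and r = 0.87 without WT replicates 2 and 3, the 2 mice farthest from the median. It passed in all 13 repeats that left out 1 mouse.

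Cidea and Cidec, both fusion proteins, had r = 0.86 (permutation P = 0.000360, adjusted 0.00810) and rho = 0.84 (permutation P = 0.00105, adjusted 0.0156). Their r was 0.94 within WT, 0.81 within Nod2-/- mice and 0.80 without WT replicates 2 and 3. Cidec and Pnpla3 had r = 0.73 (permutation P = 0.00605, adjusted 0.0425) and rho = 0.85 (permutation P = 0.00127, adjusted 0.0156), with r = 0.86 within WT, 0.62 within Nod2-/- mice and 0.70 without the 2 farthest mice. For all 3 pairs among Cidea, Cidec and Pnpla3, r was positive within each genotype, though the values within 1 genotype were not tested.

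Cidea and Cideb moved in opposite directions, with r = -0.81 (permutation P = 0.00127, adjusted 0.0190) and rho = -0.79 (permutation P = 0.00187, adjusted 0.0168), r = -0.96 within WT, -0.69 within Nod2-/- mice and -0.69 without WT replicates 2 and 3. Plin3 and G0s2 also did, with r = -0.63 (permutation P = 0.00770, adjusted 0.0425) and rho = -0.78 (permutation P = 0.00139, adjusted 0.0156), r = -0.74 within WT, -0.73 within Nod2-/- mice and -0.53 without the 2 farthest mice. These counts rested in part on single livers, since 1 pair passed by both measures without WT replicate 3 and 11 passed without Nod2-/- replicate 7. For Cidec with Pnpla3 and for Plin3 with G0s2, Pearson's r passed in 4 of the 13 repeats that left out 1 mouse. It passed in 12 of the 13 for Cidea with Cidec (adjusted permutation P up to 0.0632). For Cidea with Cideb it passed in 9 of the 13 (adjusted permutation P up to 0.167).

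**Figure D4:**
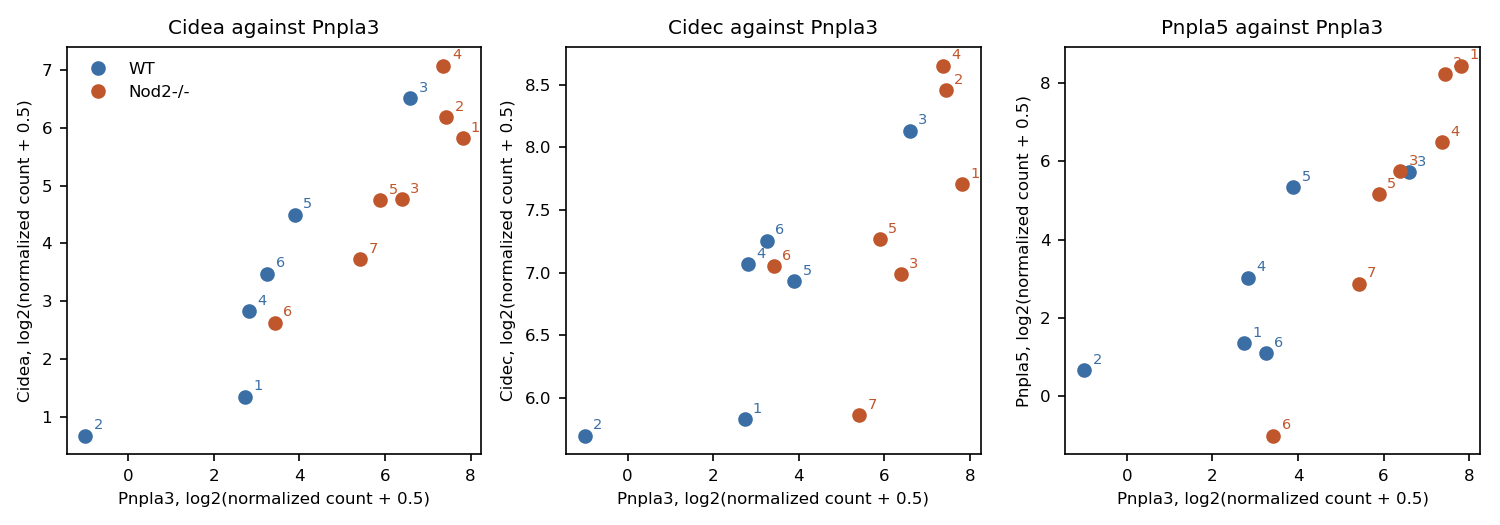
Each panel plots 1 gene against Pnpla3, both as log2(normalized count + 0.5), with WT mice in blue, Nod2-/- mice in orange and the replicate number beside each point. Cidea rises with Pnpla3 in both genotypes (r = 0.91 in WT and 0.93 in Nod2-/-), Cidec does so with more scatter (0.86 and 0.62), and WT replicate 3 lies with the high Nod2-/- livers in the Cidea and Cidec panels.

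The genes nearest in pattern were sought among the other 13544 genes tested, by Spearman's rho of genotype-centred levels over the 13 mice, and as they were picked for their likeness they carry no P. For Pnpla3 the 4 nearest were Rnf39 (rho = 0.967, r = 0.888), Myo5c (rho = 0.962, r = 0.950), Dusp4 (rho = 0.951, r = 0.885) and Jcad (rho = 0.940, r = 0.892). For Cidec they were Hid1 (rho = 0.951, r = 0.920), Tnc (rho = 0.945, r = 0.889), Parm1 (rho = 0.923, r = 0.859) and Fgfr2 (rho = 0.912, r = 0.865). For Plin2 the nearest were less close, with Dpp9 (rho = 0.885, r = 0.887), A230005M16Rik (rho = 0.846, r = 0.859), Lrp11 (rho = 0.813, r = 0.701) and Lrrc47 (rho = 0.813, r = 0.702). None of these 12 genes was among the other droplet genes or the lists below.

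**Figure D5:**
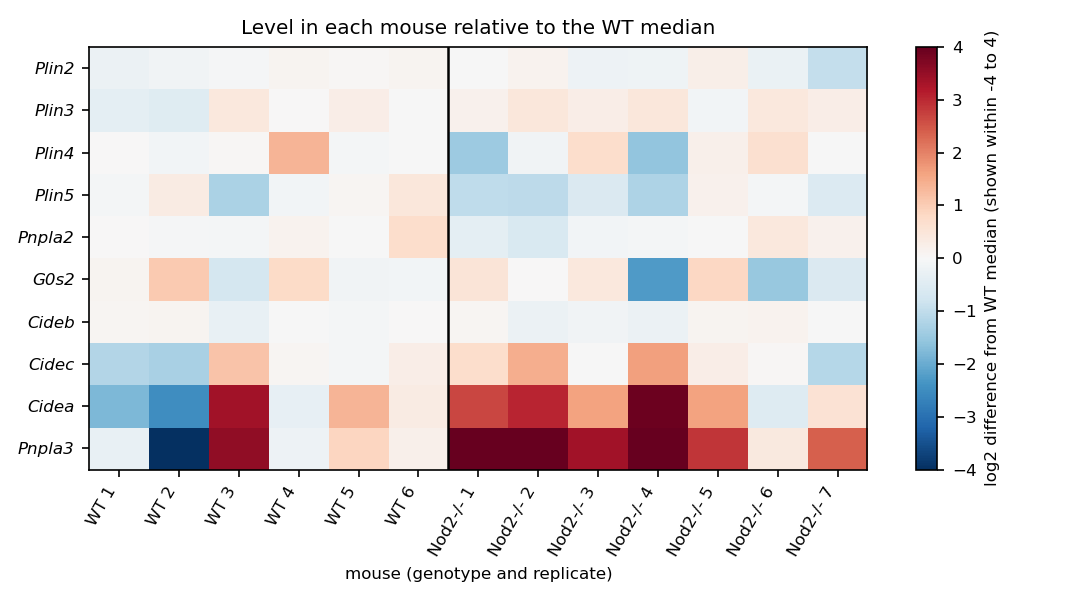
Columns are the 13 mice and rows the 10 genes. Color gives the log2 difference of a liver from the WT median of that gene, on log2(normalized count + 0.5), with the scale ending at -4 and 4. The lowest 3 rows, Cidec, Cidea and Pnpla3, are red in WT replicate 3 and in Nod2-/- replicates 1, 2 and 4, while the Plin2 and Cideb rows stay near white in most mice.

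The partners of the 10 genes were read from the same fit in lists written by role. Beside every list stand the shares of all genes tested, which were 1.16% at a 5% FDR in edgeR, 8.41% in DESeq2 and 6.22% in limma, and 23.1% at an unadjusted P under 0.05 in edgeR. Of 9 cofactors and other intracellular lipid hydrolases, 0 passed the 5% FDR in edgeR, with 0 higher and 3 lower at an unadjusted P under 0.05, and their median log2 fold change was -0.27 against 0.02 for all genes. The 3 were Abhd6, a monoacylglycerol lipase, at -0.93 ± 0.27 (SE, adjusted P = 0.0805), Mgll, the main monoacylglycerol lipase, at -0.65 ± 0.22 (SE, adjusted P = 0.113), and Ces1d, a carboxylesterase that mobilizes triglyceride for secretion, at -1.14 ± 0.51 (SE, adjusted P = 0.197). DESeq2 called 2 of the 9, Abhd6 and Mgll, with adjusted P of 0.0170 and 0.0439, and limma called 1. With so few genes, 3 of 9 is near the 23.1% of all genes at that unadjusted P and is no result about the hydrolases. Abhd5, the activator of Pnpla2, was at 552 to 1282 normalized counts in WT and 468 to 1108 in Nod2-/- mice, with a log2 fold change of -0.03 ± 0.24 (SE). Of the 5 other patatin-like genes 0 passed in edgeR, with 1 higher (Pnpla5) and 1 lower (Pnpla8, a mitochondrial phospholipase, at -0.40 ± 0.12, SE, adjusted P = 0.0923) at an unadjusted P under 0.05, and Pnpla7, a lysophospholipase, was at 0.27 ± 0.14 (SE, adjusted P = 0.257). DESeq2 called 1 of these 5 and limma 0.

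Among 8 droplet assembly genes 1 passed the 5% FDR in edgeR, against 1.16% of all genes tested, and 2 were higher and 3 lower at an unadjusted P under 0.05. DESeq2 called 1 higher and 2 lower, and limma 1 higher and 1 lower. Fitm2, which partitions triglyceride into nascent droplets, was at 1224 to 1985 normalized counts in WT mice (median 1704) and 678 to 1390 in Nod2-/- mice (median 970). The groups overlapped only slightly, and Fitm2 fell by 0.75 ± 0.15 (SE) on the log2 scale (adjusted P = 0.0345 in edgeR). It passed in 7 of the 13 fits that left out 1 mouse, with adjusted P from 0.0101 to 0.0946. Acsl3, an acyl-CoA synthetase of nascent droplets, lay in the other direction at 92.1 to 300.5 normalized counts in WT mice (median 181) and 291 to 787 in Nod2-/- mice (median 353). Its log2 fold change of 1.11 ± 0.29 (SE) did not pass in edgeR (adjusted P = 0.0656). Among 12 other droplet-bound proteins 1 passed in edgeR, and 1 was higher and 4 were lower at an unadjusted P under 0.05, while DESeq2 and limma each called 1, which was lower. Mettl7a1, a methyltransferase-like protein found on droplets, was at 5334 to 7139 in WT mice (median 6018) and 2980 to 4794 in Nod2-/- mice (median 4368). Its groups did not overlap, and it fell by 0.61 ± 0.13 (SE) on the log2 scale (adjusted P = 0.0379 in edgeR), passing in 6 of those 13 fits with adjusted P from 0.0209 to 0.107. The median log2 fold changes were -0.11 for assembly and -0.15 for the other droplet-bound proteins.

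Of 10 transcription factors of lipid storage 0 passed in edgeR, with 1 higher and 2 lower at an unadjusted P under 0.05. Creb3l3, an endoplasmic reticulum factor of fasting metabolism, was at -0.41 ± 0.12 on the log2 scale (SE, adjusted P = 0.0774 in edgeR and 0.00954 in DESeq2). Ppara, the receptor that drives fatty acid oxidation and several droplet coat genes, was at -0.57 ± 0.22 (SE, adjusted P = 0.150), and Srebf1, which drives lipogenesis and Pnpla3, was at 0.56 ± 0.25 (SE, adjusted P = 0.199). DESeq2 and limma each called 1 of the 10, Creb3l3.

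Of 11 PPAR alpha targets outside the droplet genes, 1 rose and 1 fell at a 5% FDR, against 1.16% of all genes tested, and 1 was higher and 6 were lower at an unadjusted P under 0.05, against 23.1%. DESeq2 called 1 higher and 3 lower, limma called 1 higher and 4 lower, and the median log2 fold change was -0.62. Ehhadh, an enzyme of peroxisomal beta oxidation, ran from 2933 to 6720 normalized counts in WT and from 829 to 2493 in Nod2-/- mice, and fell by 1.25 ± 0.26 (SE) on the log2 scale (adjusted P = 0.0386 in edgeR, 6 of 13 fits without 1 mouse passing, adjusted P from 0.0174 to 0.107). Fgf21, a hormone of the fasted liver, ran from 53.3 to 113 in WT and from 109 to 594 in Nod2-/- mice, and rose with a log2 fold change of 1.70 ± 0.32 (SE, adjusted P = 0.0261 in edgeR, 10 of 13 fits without 1 mouse passing, adjusted P from 0.00727 to 0.0728). The Ehhadh groups did not overlap and those of Fgf21 barely did. Plin2, Plin4, Plin5, Cidec, Pnpla2 and G0s2 are known as PPAR targets too. None of them passed the same test, and most of the 11 listed targets did not pass it either.

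Of 8 lipogenic enzymes 0 passed in edgeR, with 2 higher and 1 lower at an unadjusted P under 0.05 and a median of 0.10. Scd1 was at 1.93 ± 0.52 (SE, adjusted P = 0.0673 in edgeR, 0.0111 in DESeq2, and 0.00452 without WT replicate 3). Fasn was at 0.68 ± 0.26 (SE, adjusted P = 0.143) and Thrsp, a nuclear protein that goes with lipogenesis, at -0.80 ± 0.34 (SE, adjusted P = 0.182). DESeq2 called 1 of the 8 and limma 2. Whether the droplet genes differed from these lists was not tested.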

How the data were processed

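PolyA RNA from the livers of 13 mice was made into stranded libraries and sequenced in paired-end mode by the authors. Per the labels and the methods of the study, reads were trimmed with Trimmomatic 0.33 and aligned to GRCm38 with TopHat2 2.1.1, and the deposited table holds raw counts per gene. The counting program, its strand setting and its handling of reads with several positions are not given in the sources used here. The labels give 30 weeks of diet, while the study's methods name another week.

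One blank line was left out, and all 13 columns were matched to mice. Genes kept by filterByExpr (13545 of 53465, holding 99.86% of counts) were fitted by genotype with edgeR 4.0.16 (quasi-likelihood, TMM, two-sided, Benjamini-Hochberg over all genes tested) in R 4.3.3. Each replicate is a separate mouse. The standard error given for edgeR was derived from its test, as the absolute log2 fold change divided by the square root of the F statistic. It is therefore approximate, above all for genes with few counts. The levels of single genes were also compared by exact permutation on log2(normalized count + 0.5). Alternatives were DESeq2 1.42.0, limma 3.58.1 with quality weights, RLE scaling, no filter, a minimum of 10 counts per gene in each liver, a block for replicate number (without Nod2-/- replicate 7), and leaving out 1 mouse at a time. After the data were seen, fits without WT replicate 3 and Nod2-/- replicate 7, the ratios and the repeats of the correlations were added. Gene lengths and positions were taken from GENCODE M21 of the same build as the counts, by gene identifier without version, and promoters from RefSeq. Scripts were tested on simulated data.

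Named genes are the 10 droplet genes, list genes past 5% FDR or else the 3 with the lowest P in a list, and the 4 nearest in pattern to Plin2, Cidec and Pnpla3. Abhd5, Acsl3, and the marker genes given beside Cidea and Cidec, were named outside this rule after their values were seen. So were Acaca, Acly, Elovl6, Pklr and Me1, given beside Pnpla3. The droplet genes and lists were chosen with earlier results of these data known.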

Additional observations from a re-analysis of the deposited data

Results flagged for a closer look

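A single liver stood far from the rest of its group for 4 of the droplet genes, by the gap to the nearest liver relative to the range of the group (Dixon's 95% critical value). Plin4 was at 727 normalized counts in WT replicate 4, with the next WT liver at 290.1. Cidea was at 91.3 in WT replicate 3, with the next at 22.1. Pnpla3 was at 95.8 in the same liver, with the next at 14.4. Pnpla2 was at 1454 in WT replicate 6, with the next at 983. Among the list genes named, Ces1d was at 29088 in Nod2-/- replicate 5 (next 10747), Fgf21 at 594 in Nod2-/- replicate 2 (next 298) and Scd1 at 9912 in WT replicate 3 (next 3508), and Creb3l3 was lowest in WT replicate 3, at 7320 (next 9421). The 8 values came from 52 groups tested, and 4 of the 8 were in WT replicate 3. The gaps were taken on normalized counts without a log transform, where high values stand out more readily. The nominal rate of about 1 in 20 groups is for normally distributed values and need not hold here. The 8 values therefore cannot be read as more than chance alone would pick. The cause of these values was not tested.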

How the results depend on the processing

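The 10 droplet genes had 198 alternative values, of which 189 kept their direction and side of the threshold, 6 changed sign and 3 passed the threshold. Those that passed were all of Pnpla3: a log2 fold change of 3.66 in limma with quality weights, 3.86 without WT replicate 3, and 4.01 without WT replicate 3 and Nod2-/- replicate 7, a fit added after seeing the data. Accordingly 1 droplet gene was higher under limma and 1 in the fit without both mice, and 0 to 1 over the fits without 1 mouse, where 0 were lower. Plin4 changed sign without WT replicate 4 (0.01; range -0.50 to 0.01) and Cideb without WT replicate 1 or Nod2-/- replicate 3 (0.01) and without WT replicate 2, Nod2-/- replicate 2 or replicate 4 (0.02; range -0.07 to 0.02). With 1 mouse left out Pnpla3 ranged from 1.98 to 3.86. Cidea and Pnpla3 had no value with at least 10 counts in every mouse.

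Over all genes, 88 were higher and 69 lower in edgeR, 630 and 579 in DESeq2, 519 and 324 in limma, 408 and 159 without both mice, and 20 to 697 and 20 to 459 over the fits without 1 mouse (highest without WT replicate 3). List genes past the threshold numbered 4 in edgeR, 20 in DESeq2, 12 in limma, 10 without both mice and 0 to 15 without 1 mouse. Correlated pairs numbered 5, and 1 to 11 without 1 mouse. The cause of these shifts was not tested. Replicate numbers did not pair the mice: same-numbered mice correlated between -0.302 and 0.304, over 0.1 in 1 of 6 pairs, and 0 of 6 WT mice correlated best with their own number. The fit with the replicate block also left out Nod2-/- replicate 7, which has no WT mouse of its number. In that fit 15 genes were higher, 17 lower and 0 list genes passed, and Pnpla3 was at 2.85 (adjusted P = 0.192). Fitm2, Mettl7a1, Ehhadh and Fgf21 had adjusted P between 0.0894 and 0.133 there. Without Nod2-/- replicate 7 and with no block, 28 genes were higher, 26 lower and 1 list gene passed. Depth limits Cidea and Pnpla3, with 0 to 212 counts per liver.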
